A study of Homo sapiens with 32 samples.

Results

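BicR prostate cancer cells were compared at 24 h and at 6 h after treatment began, to ask which transcription start sites changed between the early and the late time. The comparison holds 6 of the 32 libraries of the series: 3 taken at 24 h, with ethanol, with 10 nM dihydrotestosterone (DHT) or with 1 µM bicalutamide, and 3 taken at 6 h with the same agents. The libraries were chosen by their labels and paired by treatment. The measurement was CAGE (cap analysis of gene expression), which counts capped 5′ ends of RNA, so each tag marks a position where an RNA began. Each combination of treatment and time gave 1 library, so the 3 treatments stand in for replicates of a time. The p-values set the time difference against how far it varied between treatments. Before treatment all cells had been kept in medium with steroid-depleted serum. The labels describe BicR as prostate cancer cells without spelling out the name or giving its origin. They do not say whether libraries came from separate cultures.

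DHT is a natural androgen that binds the androgen receptor, a transcription factor that then enters the nucleus and acts at promoters and enhancers. Bicalutamide is an antagonist that occupies the same receptor, and ethanol is the vehicle. In prostate cancer cells the receptor is known to control both differentiated functions, such as secretory proteins, and growth. A site that moved the same way in all 3 treatments did so with androgen, with antagonist and with neither.

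The 6 libraries held 5926409 to 7367392 tags at 13294 start sites, of which 13014 had enough tags to be tested. The 24 h and 6 h libraries of DHT with bicalutamide stayed out of the fit, because the 6 h one holds tags at sites that are near-empty in most other libraries. The 6 h ethanol and 6 h bicalutamide libraries stood apart from the other 4 in another way: the sites of the table held 78.56% and 75.57% of the library total that the deposited RPM imply, against 84.44 to 86.06% in the rest. Mitochondrial tags made up 3.61, 4.28 and 3.99% of the tags at 24 h (ethanol, DHT, bicalutamide), against 5.83, 3.76 and 6.41% at 6 h. Levels below are therefore RPM (tags scaled to a common library total) recomputed with TMM-scaled totals, called normalised RPM, rather than the deposited RPM. The comparison without both is given beside the counts. The sites carry no gene name, so they are given by hg19 position, and the labelled cell type could not be set against marker genes.

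Between 24 h and 6 h, 296 sites rose (2.27% of those tested) and 282 fell (2.17%), together 4.44%, by edgeR's quasi-likelihood test with treatment as a covariate at an adjusted p under 0.05. The median log2 change was 0.86 over the rises, -0.85 over the falls and -0.02 over all sites tested. Among them, 116 rises and 84 falls were at least 2-fold. The time difference pointed the same way in ethanol, DHT and bicalutamide at 296 of 296 rises and 277 of 282 falls. The test favours sites whose time difference varied little between treatments, so this count partly restates how the sites were chosen. Every 24 h library lay above every 6 h library at 264 of the 296 rises, where 15.2% of all sites tested did so. Every 24 h library lay below every 6 h library at 255 of the 282 falls, where 12.5% of all did. The same 6 libraries chose the called sites, so these counts too partly restate the choice.

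The counts depend on which libraries are kept. Without the bicalutamide pair 1 site passed by edgeR's test (1462 at an unadjusted p under 0.05). In contrast, 525 passed without the DHT pair and 1450 without the ethanol pair. Leaving out 1 library and the treatment term gave 0 sites for each of the DHT and bicalutamide libraries. Without the treatment term 61 sites passed with all 6 libraries. With the 6 h ethanol and 6 h bicalutamide libraries also left out, 0 sites passed by edgeR's test (2397 at an unadjusted p under 0.05). The balance of rises and falls depends on the scaling: library totals without TMM gave 692 rises and 294 falls, and the totals implied by the deposited RPM gave 1388 rises and 285 falls, with the median of all sites at 0.15 instead of -0.02. Every called site that could be measured kept its direction in each of 20 alternative fits. These fits share libraries with the one that chose the sites, so the kept direction is no separate check.

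**Figure D1:**
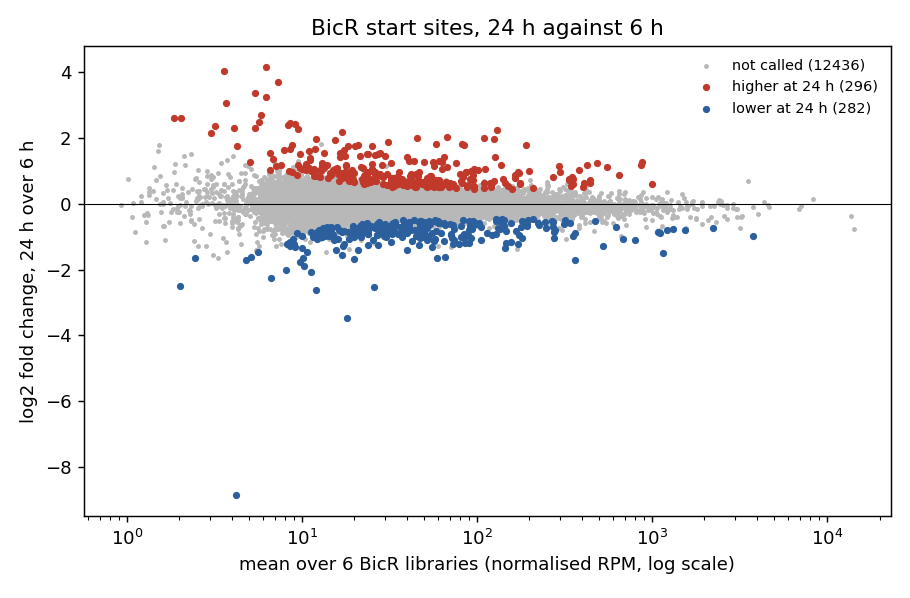
Log2 fold change, 24 h over 6 h, of 13014 BicR start sites (vertical axis) against their mean level over the 6 libraries in normalised RPM (horizontal log axis). The 296 called rises and 282 called falls are coloured and occur at all levels; the lowest point is a site with 0 tags in every 24 h library, whose fitted fold change is no bound.

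Called sites were found at every level. Below 10 normalised RPM, 2.16% of 1622 tested sites rose and 1.29% fell. From 300 normalised RPM upward, 3.43% of 525 rose and 3.62% fell. The 1 site with 0 tags in all 24 h libraries had 54 tags in 6 h ethanol and 102 in 6 h bicalutamide and at most 3 in any other BicR library of the comparison, so its fall rests on the libraries that stand apart.

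The largest rise among called sites with a mean of at least 10 deposited RPM and 1 direction in all treatments was on chromosome 20 at position 361670, plus strand. It stood at 193, 139 and 313 normalised RPM at 24 h (ethanol, DHT, bicalutamide), against 68.2, 38.2 and 28.0 at 6 h. All 24 h libraries were above all 6 h libraries, and the increase was widest with bicalutamide. The log2 change was 2.23 (SE 0.31, adjusted p = 0.0196, edgeR). The library taken before treatment had 36.4 normalised RPM, close to 6 h with DHT. Without the treatment term the adjusted p was 0.0519, and with 1 library also left out it was 0.0173 to 0.284, past the threshold only without either ethanol library. In the DHT with bicalutamide pair, which took no part in the fit, the site stood at 298 at 24 h and 65.4 at 6 h.

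The most abundant rise under these limits lay on chromosome 18 at position 40857454, minus strand. Its level was 1260, 1260 and 1130 normalised RPM at 24 h, against 943, 686 and 739 at 6 h, again without overlap (log2 0.61, SE 0.13, adjusted p = 0.0400, edgeR). The DHT with bicalutamide pair did not show this difference, with 1140 normalised RPM at 24 h and 1170 at 6 h. The call was lost when that pair was added (adjusted p = 0.0813), and without the DHT (0.0892) or the bicalutamide pair (0.211). Without the treatment term it was lost too (0.0676), and with 1 library also left out it passed only without 6 h ethanol (adjusted p = 0.0250, up to 0.295 in the other 5 fits). On the same strand, 4 further sites lay within 10 kb, and all 4 had higher estimates at 24 h, with log2 changes of 0.62 to 1.25. The one 9080 bp away passed the test (log2 0.63, adjusted p = 0.0412, edgeR).

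The largest fall, under the same limits, was on chromosome 12 at position 52445225, plus strand. It had 4.45, 11.8 and 3.96 normalised RPM at 24 h (ethanol, DHT, bicalutamide), against 8.05, 98.0 and 29.9 at 6 h. The groups overlap, since 24 h with DHT was above 6 h with ethanol. Within each treatment the 24 h library was the lower one, and the difference was mostly in how high the 6 h libraries with DHT and bicalutamide stood: before treatment the level was 6.68. The log2 change was -2.54 (SE 0.34, adjusted p = 0.0196, edgeR), and without the bicalutamide pair it was not called (adjusted p = 0.106). Without the treatment term the log2 change was -2.79, and it was -1.53 when the 6 h DHT library was also left out and -3.44 when the 24 h DHT library was; none of the 3 fits called it (adjusted p = 0.119, 0.327 and 0.135). The pair left out of the fit held 4.68 at 24 h and 81.6 at 6 h.

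The most abundant fall under these limits was on chromosome 12 at position 49525177, minus strand. It stood at 2930, 2740 and 2120 normalised RPM at 24 h, against 4380, 5130 and 5390 at 6 h and 4880 before treatment. The groups were clearly apart, and the log2 change was -0.96 (SE 0.17, adjusted p = 0.0263, edgeR). It was not called without the bicalutamide pair (adjusted p = 0.155). Without the treatment term it was called (adjusted p = 0.0480), and with 1 library also left out in 2 of 6 fits, not without either DHT or either bicalutamide library (0.0710 to 0.284). Of its same-strand neighbours, the site 1841 bp away also fell (log2 -1.18, adjusted p = 0.0436), whereas the site 1114 bp away had a positive estimate that missed the threshold (log2 0.56, adjusted p = 0.0620, edgeR).

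**Figure D2:**
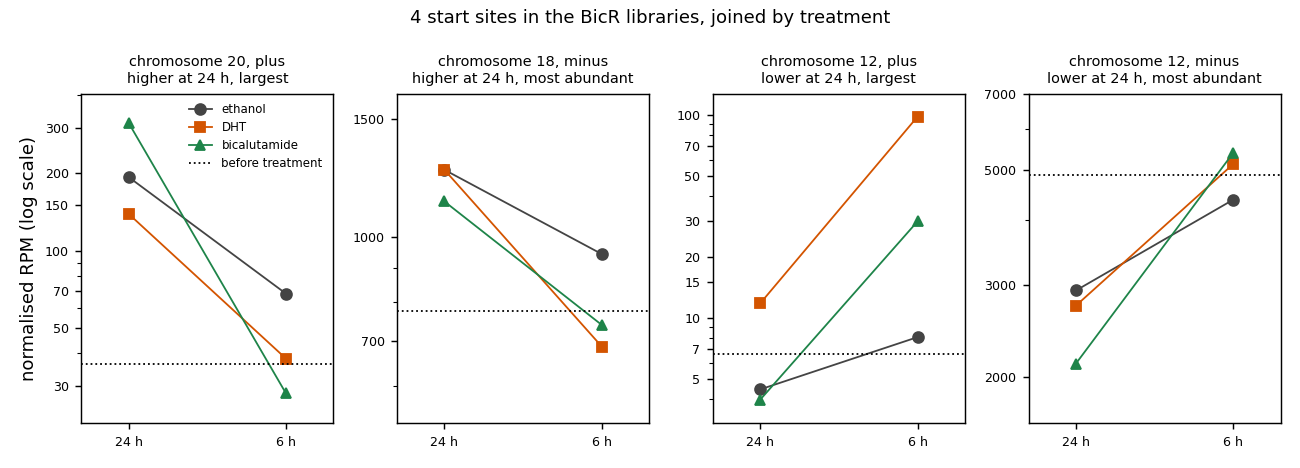
Level of the 4 start sites described by position, in normalised RPM on a log axis, in the 24 h libraries (left) and 6 h libraries (right) of BicR; lines join the libraries of 1 treatment and the dotted line is the library before treatment. All 3 lines slope the same way in each panel, and in the chromosome 12 plus strand panel the 24 h DHT library is above the 6 h ethanol one.

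Under the same limits on level and direction, the 12 largest rises had log2 changes of 1.79 to 2.23 and the 12 largest falls of -2.54 to -1.28. The rises averaged 19.1 to 215 normalised RPM at 24 h and 5.01 to 50.8 at 6 h. The falls averaged 6.73 to 652 at 24 h and 22.7 to 1660 at 6 h. The groups did not overlap at 11 of the 12 rises and 11 of the 12 falls. Among all called sites this held for 89.2% of the rises and 90.4% of the falls. Over all sites tested, every 24 h library was above every 6 h library at 15.2% and below at 12.5%. The called sites were chosen on these same libraries, so their higher shares partly restate the choice. Of the 12 largest falls, 5 lay in 1 stretch of chromosome 6.

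That stretch, chromosome 6 from 26000001 to 28000000, was picked after the values were seen, as the pair of adjacent 1-Mb bins with the most falls. The short arm of chromosome 6 is known to carry the main cluster of replication-dependent histone genes, which are expressed as cells copy their DNA; no site was assigned to a gene here. Of 49 tested sites in the stretch, 16 fell (32.7%, against 2.17% of all sites) and 0 rose by edgeR's test, 38 had a lower estimate at 24 h, and the median log2 change was -0.66. The 16 called falls were split evenly between the strands, 8 on each.

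The summed level of the 49 sites was 19390, 10020 and 14510 normalised RPM at 24 h (ethanol, DHT, bicalutamide), against 22180, 25000 and 23470 at 6 h. The library before treatment held 24630. The sum was thus lowest at 24 h with DHT and closest to 6 h with ethanol. In the DHT with bicalutamide pair it was 10010 at 24 h and 21410 at 6 h. Over the 16 called sites alone the sums were 5402, 2421 and 3344 at 24 h, against 7251, 7981 and 7933 at 6 h.

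**Figure D3:**
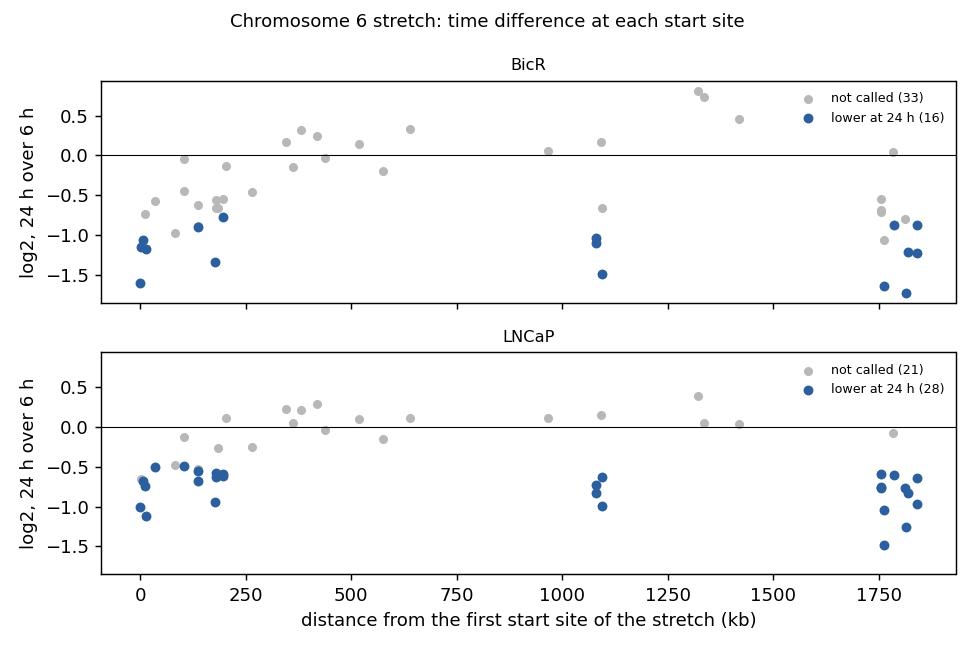
Log2 fold change, 24 h over 6 h, of the 49 start sites in the chromosome 6 stretch, by distance in kb from its first site, in BicR (top) and LNCaP (bottom). Called falls (16 in BicR, 28 in LNCaP) lie in 3 groups of neighbouring sites, which also hold sites that were not called. Between the groups most sites lie near or above 0, but not all (position 26285761: log2 -0.46 in BicR, -0.25 in LNCaP).

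Rises were also found close together. On chromosome 1 from 84624023 to 84640651, plus strand, 8 tested sites followed each other at gaps under 10 kb, a neighbourhood picked after the values were seen because it held the most called sites. All 8 had higher estimates at 24 h, and 4 of them rose, with log2 changes of 0.65 to 0.97 (adjusted p = 0.0196 to 0.0379, edgeR). Their summed level was 383, 285 and 298 normalised RPM at 24 h, against 262, 154 and 201 at 6 h and 233 before treatment. The 24 h libraries were all above the 6 h ones here, the closest being 24 h with DHT and 6 h with ethanol.

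No other tested site lay within 10 kb on the same strand at 204 of 296 rises (68.9%) and 211 of 282 falls (74.8%), against 78.1% of all sites. Around the other rises, 83 of 101 neighbours that were not called rises themselves had a positive log2 change. Around the other falls, 81 of 104 neighbours that were not called falls had a negative one. The medians of those neighbours were 0.33 and -0.24. Across 853 pairs of neighbouring sites on 1 strand at most 1000 bp apart, the time differences correlated at r = 0.55, and 70.2% had the same sign. A shared sign was thus common among neighbouring sites in general, not only around called ones. Across 1499 divergent pairs, sites on opposite strands that point away from each other at most 1000 bp apart, r was 0.34 and 60.8% had the same sign. These correlations are across sites of the same 6 libraries and carry no test.

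The shares of falls and rises differed between chromosomes, which was not tested, and the chromosomes named here were picked after the values were seen. Chromosome 6 held the highest share of falls, 4.55% of 638 sites, but outside the stretch described above the share was 2.21% of 589. Chromosome 5 held the highest share of rises, 3.89% of 617, and chromosome 4 had 3.77% of 478. On chromosomes 19 and 17 the share of rises was 0.94% of 959 and 1.02% of 781. The median log2 change of all tested sites was 0.06 on chromosome 5 and 0.09 on chromosome 4. It was -0.09 on chromosome 19 and -0.08 on chromosome 17. Of the 49 mitochondrial sites, 1 fell and 0 rose by edgeR's test, with a median log2 change of -0.38; their share of the tags was highest in the 6 h ethanol and 6 h bicalutamide libraries, as given above.

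The treatments differed in how much they changed over time. Across 10389 sites of at least 10 RPM, the SD of the log2 difference, 24 h minus 6 h, was 0.25 with ethanol, 0.44 with DHT and 0.45 with bicalutamide. With ethanol 16 sites were at least 2-fold higher at 24 h and 6 lower. With DHT these were 170 and 185, and with bicalutamide 178 and 174. All 3 treatments passed 2-fold at 9 rises and 2 falls. The ethanol pair had the smallest difference at 228 of the 296 called rises and 234 of the 282 called falls, and the bicalutamide pair the largest at 214 of the rises. At the falls the largest difference was in the DHT pair at 140 sites and in the bicalutamide pair at 135. The time differences correlated across sites at r = 0.61 between DHT and bicalutamide, 0.52 between ethanol and bicalutamide and 0.35 between ethanol and DHT. Log2 levels of the 6 h bicalutamide library correlated at 0.986 with 6 h DHT and at 0.974 with 6 h ethanol. With 1 library each, none of these differences between treatments could be tested.

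The BicR library before treatment places the 2 times. Relative to it, the 296 rising sites had median log2 differences of 0.30 at 6 h and 0.84 at 24 h with ethanol. With DHT the medians were -0.12 at 6 h and 0.78 at 24 h, and with bicalutamide -0.10 and 1.02. The 282 falling sites were at -0.13 and -0.59 with ethanol, -0.0029 and -0.94 with DHT, and 0.01 and -0.86 with bicalutamide, each at 6 h and 24 h. The called sites were thus near the untreated level at 6 h and away from it at 24 h, apart from the rises with ethanol, which had moved up by 6 h. All 3 24 h libraries were above the untreated one at 285 of 296 rises (96.3%, against 33.7% of all sites tested) and below it at 260 of 282 falls (92.2%, against 28.3%). The untreated level was nearer the 6 h mean at 286 rises and 251 falls, against 67.2% of all sites tested. The sites were called on these same 6 h and 24 h libraries, so their gap to all sites tested partly restates how they were chosen. The untreated library took no part in that choice. The 6 h and 24 h differences share the untreated library, of which there is 1.

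**Figure D4:**
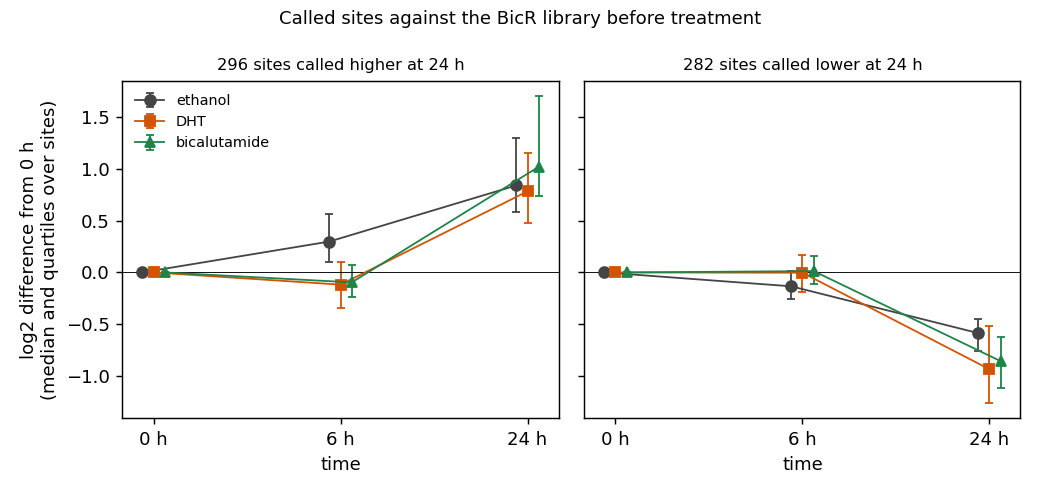
Log2 difference from the BicR library before treatment (vertical axis) at 0, 6 and 24 h for the 296 called rises (left) and the 282 called falls (right); points are medians and bars quartiles over sites, 1 line per treatment. At 6 h the medians lie between -0.13 and 0.30, and at 24 h between 0.78 and 1.02 for rises and between -0.94 and -0.59 for falls.

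The DHT with bicalutamide pair of BicR had no part in choosing the called sites. Its time difference had the sign of the fit at 278 of 296 rises and 275 of 282 falls, with medians of 0.89 and -0.97. Over all sites tested, the sign matched at 9277 of 13014. With this pair added to the fit, 574 sites rose and 514 fell.

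LNCaP, an androgen-responsive human prostate cancer line, was treated and sampled in the same scheme, and its libraries share none with BicR. In LNCaP 15 sites rose (0.115% of 13045 tested) and 91 fell (0.698%) between 24 h and 6 h by the same test; without its bicalutamide pair 0 were called (816 at an unadjusted p under 0.05). The LNCaP 6 h bicalutamide library held 4700 tags at the 207 sites that are near-empty in most libraries, against 34 to 70 in the other LNCaP libraries of the comparison, but 0 of those sites had enough tags to be tested in LNCaP. At the BicR rises that were also tested in LNCaP, the median log2 change was 0.86 in BicR and 0.35 in LNCaP, and the LNCaP estimate was positive at 287 of 292. At the BicR falls the medians were -0.84 in BicR and -0.55 in LNCaP, whose estimate was negative at 277 of 279. Over all sites tested in both lines, the LNCaP estimate was positive at 51.2% and negative at 48.8%. Sites called in both lines numbered 9 rises, 3.04% of the BicR list and 60.0% of the LNCaP list, and 68 falls, 24.1% and 74.7%. By treatment, the BicR rises had LNCaP medians of 0.11 with ethanol, 0.60 with DHT and 0.28 with bicalutamide, and the falls -0.29, -0.72 and -0.51.

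A test of the difference between the lines called 0 of 13069 sites (0%) with edgeR, with a smallest adjusted p = 0.837; 725 were under 0.05 before adjustment, and DESeq2 called 0 as well. The larger medians in BicR belong to sites that were chosen in BicR, so they do not show a larger change there. At the largest rise, chromosome 20 position 361670, LNCaP held 42.5, 218 and 62.5 normalised RPM at 24 h (ethanol, DHT, bicalutamide), against 57.2, 33.6 and 32.6 at 6 h (log2 1.11, adjusted p = 0.323, edgeR). The 24 h ethanol library was below its 6 h partner there, whereas in BicR it was above it. At the most abundant fall, chromosome 12 position 49525177, LNCaP fell too, to 1940, 1330 and 1680 at 24 h, against 2460, 2730 and 2930 at 6 h (log2 -0.73, adjusted p = 0.0392, edgeR).

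Sites of the chromosome 6 stretch fell in both lines. Of the 49, 28 fell in LNCaP (57.1%, against 0.698% of all sites), 15 of them among the 16 called in BicR. The LNCaP sums were 9310, 9699 and 9400 normalised RPM at 24 h, against 14050, 14240 and 13800 at 6 h. At 24 h the sums of the 3 treatments thus ranged from 10020 to 19390 in BicR and from 9310 to 9699 in LNCaP. The difference between the lines was under an unadjusted p of 0.05 at 0 of the 49 sites, with a smallest adjusted p = 0.837 (edgeR).

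**Figure D5:**
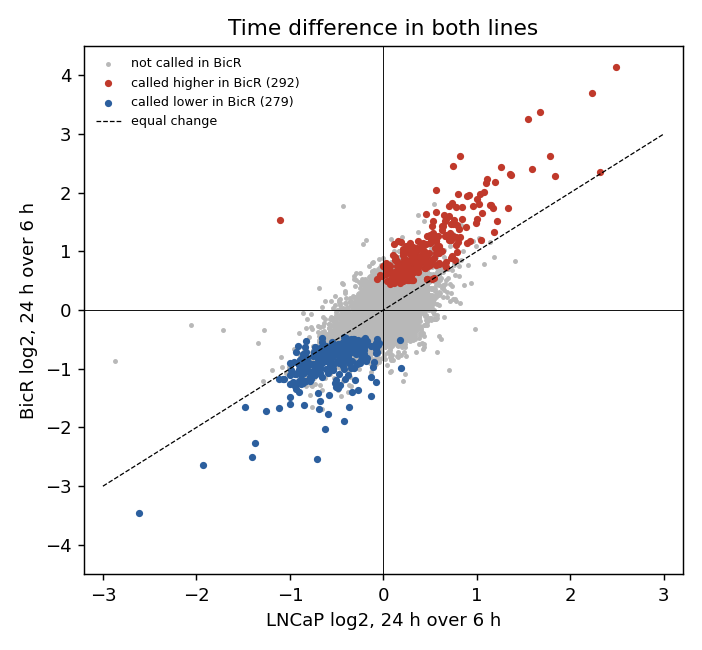
Log2 fold change, 24 h over 6 h, in BicR (vertical axis) against LNCaP (horizontal axis) for 12992 sites tested in both lines; 292 called rises and 279 called falls of BicR are coloured and the dashed line marks equal change. Most coloured sites lie in the quadrants of the same direction, at 287 of the rises and 277 of the falls.

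A separate LNCaP time course with the synthetic androgen R1881, with 2 libraries per time and no vehicle after 0 h, lists 200 of the BicR rises and 187 of the falls under the same site name. Against its own 0 h, the rises had median log2 differences of 0.27 at 12 h, 0.64 at 48 h and 0.87 at 72 h. The falls had -0.34, -1.29 and -1.49 at these times. The course has other times as well, all before 48 h, which are not given here. Over 8530 sites of both tables the medians were -0.10, -0.13 and -0.08. The tables were normalised separately and these values carry no test.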

How the data were processed

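Capped 5′ ends of total RNA were sequenced on the HeliScope, per the labels' protocols, with hg19 as the build per the submitters' processing notes; aligner and site caller are not given in the sources used here. The authors deposited raw tag counts per site and RPM values, which per the file headers are the same tags scaled per library. The deposited counts were tested with edgeR 4.0.16 under R 4.3.3 (TMM, filterByExpr with a minimum count of 10, quasi-likelihood F test, treatment as a covariate), with Benjamini-Hochberg adjustment over all sites tested and a threshold of 0.05. SE is the log2 fold change over the square root of F. Normalised RPM use TMM-scaled totals over 18 libraries in place of the deposited ones; log2 differences between single libraries, and from 0 h, use a pseudocount of 1. In the 6 libraries 3 tags correspond to 0.396 to 0.516 normalised RPM, for counting error only.

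The members and lists were chosen with earlier results of these data known. Named sites were called ones with a mean of at least 10 deposited RPM and 1 direction in all treatments: the 12 largest each way and the 2 most abundant each way. The files pair no site with a gene, and the gene tables at hand are of another build, so the gene and marker lists were not computed and only the largest and the most abundant site each way are printed. DESeq2 1.42.0, limma 3.58.1 (voom), other scalings, filters and left-out libraries were tried as alternatives. The script was tested on simulated counts.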

Additional observations from a re-analysis of the deposited data

Results flagged for a closer look

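In the BicR 6 h DHT with bicalutamide library, which no fit of the main comparison used, 33742 tags fell on 207 sites that are near-empty in most other libraries. The same sites held 29 to 139 tags in the 6 libraries compared. This signal lies outside the main measurement and above the level in the other BicR libraries, and its source was not tested.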

How the results depend on the processing

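The BicR count of 578 called sites was 403 with DESeq2, 572 with RLE factors, 618 with limma-voom, 578 without a filter and 503 with at least 10 RPM in 3 libraries. It was 61 without the treatment term, 986 with library totals without TMM, 1182 with 12 libraries of both lines sharing 1 estimate of the spread and 1088 with the DHT with bicalutamide pair added. Leaving out 1 pair gave 1 to 1450 sites, and leaving out 1 library without the treatment term gave 0 to 667 (208 without 24 h ethanol, 0 without any one of the DHT or bicalutamide libraries, with 1674 to 2853 at an unadjusted p under 0.05). The fit with totals implied by the deposited RPM (1673) and the one without the 6 h ethanol and 6 h bicalutamide libraries (0) were chosen after seeing the data. In the 20 fits, called sites kept their direction wherever measured, at least 505 of them, but these fits share libraries with the one that chose the sites. Of 79 refits of the 4 printed sites, 49 stayed past the threshold, 30 did not and 0 reversed, with adjusted p from 7.51e-11 to 0.368. The LNCaP count of 106 was 111 with DESeq2 and 0 to 770 without 1 pair. The difference between the lines gave 0 calls in each of its alternatives, with a smallest adjusted p of 0.0844 without the DHT pairs. By replicate number, no paired analysis was possible because the libraries compared carry none; the main fit is paired by treatment. With 1 library per treatment and time, the effects of single treatments over time have no replicate check.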
